A study of Mus musculus with 16 samples.

Results

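The genes of 10 mouse transcription factors that mark exhausted or chronically activated T cells (Tox, Tox2, Nr4a1, Nr4a2, Nr4a3, Batf, Irf4, Nfatc1, Maf and Prdm1) were followed in CD8 T cells from the spleens of leukaemia-bearing mice. The members were fixed by gene symbol: a probe set was taken where it carried exactly 1 symbol and that symbol was on the list, and for a gene with several such probe sets the one of highest mean over the 16 arrays was used. All 10 genes were found among 22180 genes tested, on 11 probe sets, of which Maf had 2. In this study, chimeric mice carrying Il4i1 knockout (KO) or wild-type (WT) bone marrow had received murine chronic lymphocytic leukaemia (CLL) cells of the Eµ-TCL1 transgenic model, and 5 weeks later splenic CD8 T cells were sorted for RNA. There were 4 groups of 4 arrays. Effector KO and effector WT were CD44-positive, CD127-negative cells, and memory KO and memory WT were cells with high CD44 and high CD127. All 4 groups came from female mice of the strain labelled C56BL/6, and all carried the leukaemia, so no group is free of tumour. The labels give neither the age of the mice, the share of host cells left in the chimeras, nor whether animals were pooled. The knockout was in the transplanted marrow, not in CD8 T cells alone. Il4i1 encodes a secreted amino acid oxidase, and its probe set also carried the symbols Nup62 and Il4i1b, so it was not used to check the genotype labels.

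Values are log2 expression per probe set as deposited, and a difference of 1 is a 2-fold change. A level is comparable between arrays for 1 gene, not between genes. Differences are given with the standard error (SE) of a linear model (limma) fitted to all 22180 genes. A gene passed at a Benjamini-Hochberg adjusted p under 0.05 over all of them. For each gene the fit pooled the spread of all 4 groups, so its SE is the same in every comparison of 2 groups. Some factors were more spread in the KO groups, such as Irf4, with SDs of 0.39 and 0.60 in effector and memory KO and 0.14 and 0.19 in WT. The array labelled effector KO 4 correlated with the other arrays at 0.965 to 0.974 over genes, against 0.971 to 0.994 for all other pairs, and is named where it matters. Cd8a and Cd8b1, the coreceptor chains, lay above the array median on all 16 arrays. Il7r, which encodes the sort marker CD127, averaged 5.69 ± 0.68 in effector KO, 4.04 ± 0.29 in effector WT, 11.08 ± 0.14 in memory KO and 10.71 ± 0.29 in memory WT (SD, n = 4 each), in the order the gates set. Within the effector sort Il7r was higher in KO than in WT (1.65 ± 0.25 SE, adjusted p = 0.0183, limma). It lay above the array median on 4 effector KO arrays and on 1 effector WT array. The part of this marker difference in the effector KO minus WT values was not tested. All 10 factors lay above the array median on every array.

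These genes act along 1 line of signalling from the T cell receptor. Calcium and calcineurin bring NFAT proteins, among them the product of Nfatc1, into the nucleus, where NFAT without its usual AP-1 partner induces the nuclear receptors of the NR4A family and the HMG-box factors TOX and TOX2. BATF and IRF4 bind DNA together at composite elements and carry the strength of receptor signalling into gene expression, while c-MAF and BLIMP-1, the products of Maf and Prdm1, are later factors that accompany inhibitory receptor and interleukin-10 expression. In chronic infection and in tumours the programme is known for sustaining receptors such as PD-1, TIM-3 and LAG-3.

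Start-site windows of 4 of the genes are shown, because the 3 NR4A genes form a family induced together by receptor and cyclic AMP signals and because Prdm1 was the factor called in both genotypes. RefSeq windows (GRCm38.p6, 250 bases before to 50 after a start) were held for 7 of the 10 members: Tox2, Nr4a1, Nr4a2, Nr4a3, Batf, Irf4 and Prdm1. The windows lie at chr15:101266596-101266895 on the plus strand for Nr4a1, chr2:57123954-57124253 on the minus strand for Nr4a2, chr4:48045055-48045354 on the plus strand for Nr4a3 and chr10:44458699-44458998 on the minus strand for Prdm1. In the NR4A windows capitals mark the core of the cyclic AMP response element, TGACG on either strand, and in the Prdm1 window they mark an AP-1 element, TGANTCA on either strand.
Nr4a1: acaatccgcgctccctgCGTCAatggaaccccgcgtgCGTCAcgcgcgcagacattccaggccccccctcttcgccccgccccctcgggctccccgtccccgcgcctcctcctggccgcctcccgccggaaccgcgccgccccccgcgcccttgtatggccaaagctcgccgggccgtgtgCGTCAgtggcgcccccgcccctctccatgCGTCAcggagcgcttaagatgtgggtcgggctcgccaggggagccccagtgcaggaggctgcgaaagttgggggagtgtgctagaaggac
Nr4a2: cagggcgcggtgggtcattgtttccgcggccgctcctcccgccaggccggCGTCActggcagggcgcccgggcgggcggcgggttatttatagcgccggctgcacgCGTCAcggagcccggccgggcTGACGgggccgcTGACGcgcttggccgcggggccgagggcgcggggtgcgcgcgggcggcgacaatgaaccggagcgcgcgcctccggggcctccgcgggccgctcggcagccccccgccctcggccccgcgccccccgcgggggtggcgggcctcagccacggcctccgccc
Nr4a3: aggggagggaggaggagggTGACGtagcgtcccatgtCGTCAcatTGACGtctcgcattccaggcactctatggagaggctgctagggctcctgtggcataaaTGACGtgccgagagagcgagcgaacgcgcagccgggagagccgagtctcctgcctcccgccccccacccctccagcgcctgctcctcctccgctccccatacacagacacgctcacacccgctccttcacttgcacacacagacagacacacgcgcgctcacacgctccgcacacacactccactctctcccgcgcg
Prdm1: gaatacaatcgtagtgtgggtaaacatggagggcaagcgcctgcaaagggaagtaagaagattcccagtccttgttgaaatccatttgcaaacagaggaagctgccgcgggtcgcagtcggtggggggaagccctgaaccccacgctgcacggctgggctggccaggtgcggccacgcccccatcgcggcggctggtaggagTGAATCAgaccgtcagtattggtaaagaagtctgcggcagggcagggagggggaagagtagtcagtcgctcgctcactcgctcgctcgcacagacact

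Each NR4A window held 4 cyclic AMP response element cores, while 20.8% of all 32851 windows of the table held at least 1 and 0.231% held 4 or more. Batf and Prdm1 had 1 core each, Irf4 had 0, and of the 5 Tox2 windows 1 had a core. The AP-1 element was found in the Prdm1 window alone among the members' windows, against 7.81% of all windows. The NFAT core GGAAA, searched on both strands, occurred in the windows of Nr4a2, Irf4 and Batf and in 2 of the 5 of Tox2, and in 61.3% of all windows. In the windows shown no match shared bases with a match of another motif. These are matches of letters only.

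Within each genotype the factors averaged higher in effector than in memory cells, and memory KO was mostly the lowest of the 4 groups. Across genotypes the order was not fixed, as effector KO averaged below memory WT for Nr4a2 (8.88 against 8.94) and Irf4 (7.28 against 7.31). Effector means exceeded memory means for 10 of 10 genes in KO chimeras and for 10 of 10 in WT chimeras, while a difference above 0 was seen for 51.9% of all genes in KO and 52% in WT. In KO chimeras 7 of the 10 genes passed, all higher in effector cells (Tox, Tox2, Nr4a2, Nr4a3, Batf, Maf and Prdm1), beside 7.43% of all genes in either direction and 3.14% higher. In WT chimeras 1 of 10 passed, Prdm1, beside 3.22% of all genes in either direction and 0.92% higher. Effector arrays lay entirely above memory arrays for 5 factors in KO (Tox, Tox2, Batf, Maf and Prdm1), beside 4.06% of all genes, and for 4 in WT (Tox, Irf4, Maf and Prdm1), beside 6.41%. The median difference of the 10 factors was 0.83 in KO and 0.47 in WT, where the medians of all genes were 0.01 and 0.01. Memory KO had the lowest mean of the 4 groups for 9 of 10 factors, against 24.8% of all genes. Between KO and WT no factor passed in effector or memory cells. The number called in KO chimeras ranged from 3 to 8 when single arrays were left out, with 3 (Tox, Maf and Prdm1) without memory KO 4, 4 without effector KO 1 or effector KO 2, and 8 without effector KO 4 or memory KO 2. The number called in WT chimeras was 0 in 8 of the 16 such fits and 2 (Tox2 and Prdm1) without memory WT 2. In fits of only the 8 arrays compared the order of the counts was the other way. There 2 were called in KO (Maf and Prdm1) and 4 in WT (Tox, Irf4, Maf and Prdm1). The counts over all 22180 genes turned as well, from 1649 in KO and 715 in WT in the main fit to 600 and 1320. With single arrays left out they were 961 to 2044 in KO and 359 to 1037 in WT. With array weights 8 factors were called in KO and 4 in WT, where 1644 of all genes passed in WT. A block on replicate number within genotype added Nr4a1 and Irf4 to the calls in KO and Tox to those in WT.

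**Figure D1:**
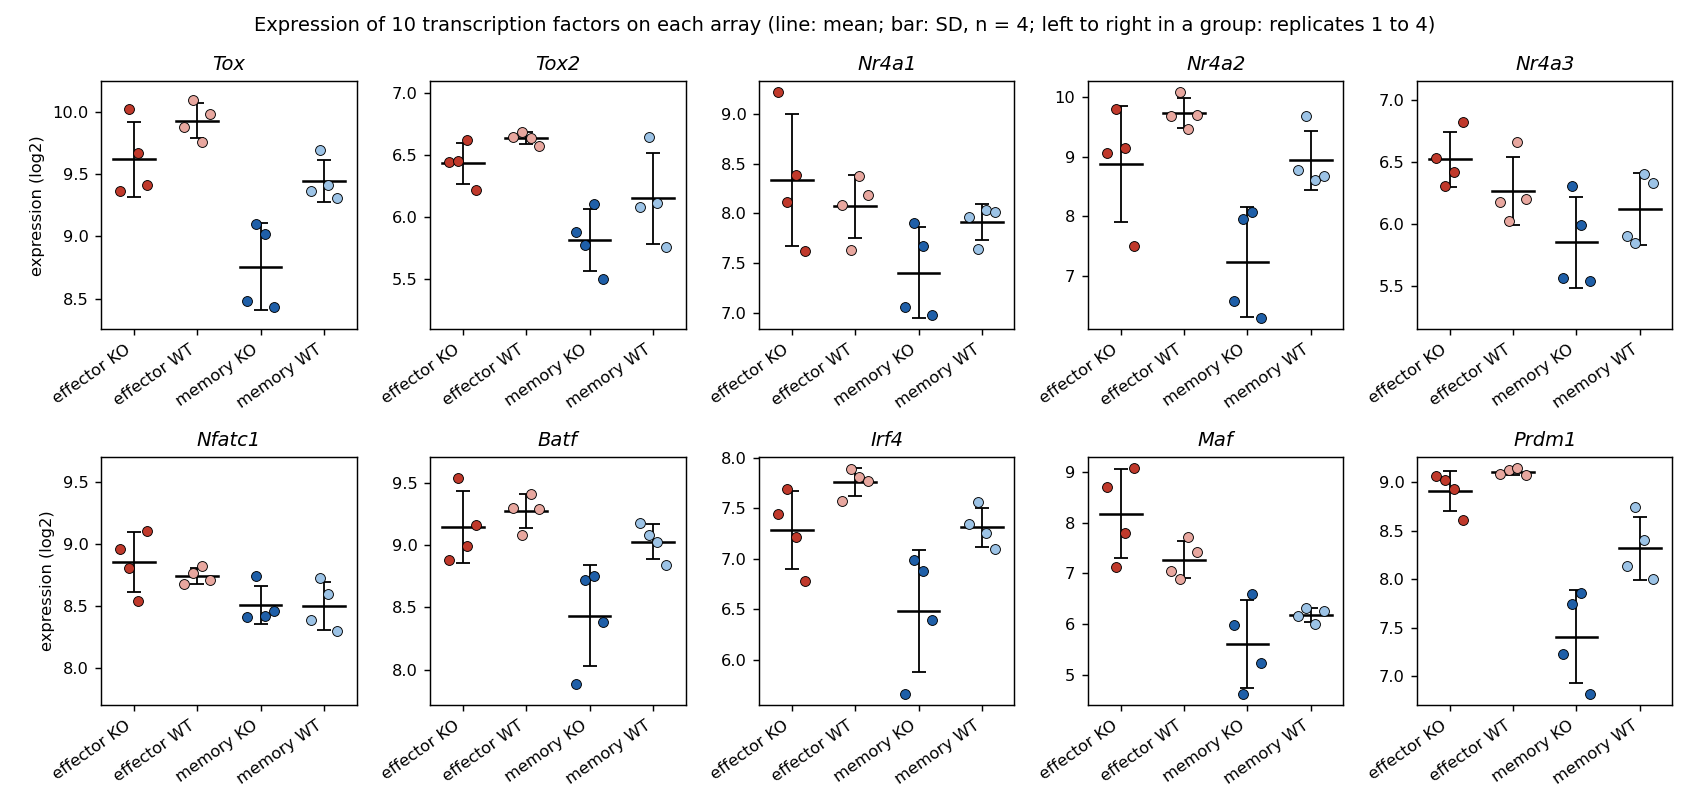
Expression (log2) of each of the 10 factors on each array, by group from effector KO to memory WT; points are arrays, lines are group means and bars are SDs (n = 4), and each panel has its own axis. Memory KO is the lowest group in every panel but that of Nfatc1, and the Maf and Nr4a2 points of the KO groups are the most spread.

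Prdm1 encodes BLIMP-1, a zinc-finger transcriptional repressor that promotes terminal effector differentiation of CD8 T cells. It read 9.07, 9.02, 8.93 and 8.61 in effector KO and 9.08, 9.13, 9.15 and 9.08 in effector WT. In memory KO it read 7.23, 7.74, 7.85 and 6.82, against 8.13, 8.74, 8.40 and 8.01 in memory WT. The effector arrays of KO chimeras lay above every memory KO array, the effector WT arrays lay above every memory WT array, and the memory KO arrays all lay below the memory WT arrays. Effector cells exceeded memory cells 2.82-fold in KO (1.50 ± 0.20, adjusted p = 0.000278) and 1.73-fold in WT (0.79 ± 0.20, adjusted p = 0.0392). The KO call stood in all 16 fits that each left out 1 array, while the WT call was lost in 8 of them: without effector KO 3, without any 1 of the 4 effector WT arrays, and without memory WT 1, 3 or 4 (adjusted p of 0.134 at most). Within memory cells KO minus WT was -0.91 ± 0.20 (adjusted p = 0.0887), and the adjusted p was 0.0179 without memory KO 3. Within effector cells the difference was -0.20 ± 0.20, although every effector KO array read below every effector WT array.

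Maf encodes c-MAF, a basic leucine zipper factor known for driving interleukin-10 and inhibitory receptor genes in T cells. It had the largest difference between the sorts among the 10. Its effector KO values were 8.71, 7.14, 7.81 and 9.09, against 5.98, 4.62, 6.60 and 5.23 in memory KO. Its effector WT values were 7.06, 6.89, 7.72 and 7.42, against 6.15, 6.31, 5.99 and 6.27 in memory WT. In both genotypes the effector and memory arrays did not overlap, and the KO groups were more widely spread than the WT groups. Effector cells were 5.97-fold higher in KO (2.58 ± 0.40, adjusted p = 0.000876), a call kept in all 16 fits that left out 1 array. In WT the difference was 1.09 ± 0.40 and missed the threshold (adjusted p = 0.189), which it passed in a fit of the 8 WT arrays alone (adjusted p = 0.0043) and with array weights (adjusted p = 0.0411). The second Maf probe set also had effector arrays above memory arrays, though not the same order of arrays within groups, with effector KO at 7.44, 6.47, 7.20 and 7.49 and memory KO at 4.88, 5.48, 5.65 and 4.60. It read 6.71, 6.57, 7.22 and 6.80 in effector WT and 5.42, 5.40, 5.92 and 5.73 in memory WT, so that its sorts did not overlap either. The lowest value of the probe set used, 4.62 on memory KO 2, lay near the array medians of 4.12 to 4.22. So did the lowest of the second probe set, 4.60 on memory KO 4, while the second read 5.48 on memory KO 2. With the mean of both probe sets, the WT difference was 1.15 and passed (adjusted p = 0.0384).

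In KO against WT, Maf was the 1 factor whose effector difference stood at an unadjusted p under 0.05. Effector KO exceeded effector WT by 0.91 ± 0.40 (adjusted p = 0.525), with arrays that overlapped, the effector KO values of replicates 1, 3 and 4 standing above all effector WT values. This holds for the probe set used. On the second Maf probe set only effector KO 1 and 4 (7.44 and 7.49) stood above all effector WT values. There effector KO 3 (7.20) lay below effector WT 3 (7.22), and effector KO 2 (6.47) lay below every effector WT array. In memory cells KO minus WT was -0.57 ± 0.40 (adjusted p = 0.635). The difference between these differences was 1.49 ± 0.57 and did not pass (adjusted p = 0.841).

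Tox encodes the HMG-box protein that establishes the chromatin state of exhausted CD8 T cells. Tox read 9.37, 10.03, 9.67 and 9.41 in effector KO and 9.88, 10.10, 9.76 and 9.99 in effector WT. The memory KO values were 8.48, 9.10, 9.02 and 8.43 and the memory WT values 9.37, 9.69, 9.42 and 9.31. Effector arrays lay above memory arrays in each genotype, and the 4 memory KO arrays lay below all other 12. Effector minus memory was 0.86 ± 0.17 in KO (adjusted p = 0.00479, kept in all 16 fits that left out 1 array) and 0.48 ± 0.17 in WT (adjusted p = 0.16). In fits of only the 8 arrays compared the KO difference missed the threshold (adjusted p = 0.0564) and the WT difference passed it (adjusted p = 0.0276), as the WT difference also did with array weights (adjusted p = 0.0395). In memory cells KO minus WT was -0.69 ± 0.17 (adjusted p = 0.143), and without memory KO 3 its adjusted p was 0.0494. The effector difference between KO and WT was -0.31 ± 0.17 (adjusted p = 0.586).

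Its paralog Tox2, which acts beside TOX in exhausted cells and is also known in follicular helper T cells, differed less between the sorts in KO chimeras. Effector KO arrays read 6.44, 6.45, 6.62 and 6.22 and effector WT arrays 6.65, 6.69, 6.64 and 6.57. Memory KO arrays read 5.88, 5.78, 6.11 and 5.50 and memory WT arrays 6.09, 6.65, 6.11 and 5.76. All effector KO values lay above all memory KO values, whereas memory WT 2 reached the effector WT range. Between the sorts the difference was 0.62 ± 0.16 in KO (adjusted p = 0.0252) and 0.48 ± 0.16 in WT (adjusted p = 0.129). The KO call was lost without effector KO 1, 2 or 3 or memory KO 2 or 4 (adjusted p of 0.0942 at most), and the WT difference passed without memory WT 2 (0.65, adjusted p = 0.0156). KO minus WT was -0.34 ± 0.16 in memory cells and -0.20 ± 0.16 in effector cells.

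Among the NR4A receptors, which need no known ligand and are induced rapidly after receptor engagement, Nr4a2 varied most. Effector KO arrays gave 9.06, 9.80, 9.15 and 7.50 and effector WT arrays 9.68, 10.08, 9.47 and 9.70. Memory KO arrays gave 6.57, 7.96, 8.07 and 6.29, against 8.78, 9.68, 8.61 and 8.68 in memory WT. The memory KO arrays fell into a lower pair, replicates 1 and 4, and a higher pair, replicates 2 and 3, and all 4 lay below every memory WT array. Effector KO 4 lay below the other effector arrays and inside the memory KO range. The sorts differed by 1.65 ± 0.45 in KO (3.15-fold, adjusted p = 0.0331) and 0.80 ± 0.45 in WT (adjusted p = 0.472). The KO call was lost without effector KO 1, 2 or 3 or memory KO 1 or 4 (adjusted p of 0.119 at most). In memory cells Nr4a2 had the largest difference of the 10 between genotypes, -1.71 ± 0.45, which is 3.28-fold lower in KO and did not pass (adjusted p = 0.17, and 0.0505 to 0.43 with single arrays left out). In effector cells it was -0.86 ± 0.45 (adjusted p = 0.578), and -0.40 without effector KO 4.

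Nr4a1, which encodes NUR77, a reporter of recent receptor signalling, read 9.22, 8.12, 8.38 and 7.62 in effector KO and 8.09, 7.63, 8.38 and 8.19 in effector WT. In memory KO it read 7.06, 7.90, 7.67 and 6.97, against 7.96, 7.64, 8.04 and 8.02 in memory WT. Only effector KO 1 stood above the remaining arrays, and memory KO 1 and 4 stood below them. Effector minus memory was 0.94 ± 0.28 in KO, just short of the threshold (adjusted p = 0.0513), and 0.16 ± 0.28 in WT, with an interval of -0.43 to 0.74. Without effector KO 4 or memory KO 2 the KO difference passed (adjusted p of 0.0103 at least), as it did with array weights (adjusted p = 0.0233). KO minus WT was 0.27 ± 0.28 in effector cells, a sign that turned without effector KO 1 (-0.03), and -0.51 ± 0.28 in memory cells.

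Nr4a3 encodes NOR1. Its effector KO values were 6.53, 6.30, 6.42 and 6.82 and its effector WT values 6.18, 6.02, 6.66 and 6.20. Its memory KO values were 5.57, 6.31, 5.99 and 5.54 and its memory WT values 5.90, 5.84, 6.41 and 6.33. All groups overlapped their neighbours. The sorts differed by 0.67 ± 0.19 in KO (adjusted p = 0.0415) and 0.14 ± 0.19 in WT (adjusted p = 0.835). This KO call was lost in 8 of the 16 fits that left out 1 array: without effector KO 1, 3 or 4, effector WT 1 or 4, or memory KO 1, 3 or 4 (adjusted p of 0.138 at most). KO minus WT was 0.25 ± 0.19 in effector cells and -0.27 ± 0.19 in memory cells.

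BATF and IRF4 are partners, a basic leucine zipper protein without activation domain of its own and an interferon regulatory factor induced in proportion to receptor signal. Batf read 8.88, 9.55, 8.99 and 9.17 in effector KO and 9.30, 9.08, 9.41 and 9.29 in effector WT. In memory KO it read 7.88, 8.72, 8.75 and 8.39, against 9.18, 9.08, 9.02 and 8.84 in memory WT. The memory KO arrays lay below all others, and the effector WT and memory WT arrays overlapped. Between the sorts the difference was 0.71 ± 0.18 in KO (adjusted p = 0.0203, with 0.0607 at most without effector KO 2 or memory KO 4) and 0.24 ± 0.18 in WT (adjusted p = 0.62). In memory cells KO minus WT was -0.60 ± 0.18 (adjusted p = 0.216), and in effector cells -0.13 ± 0.18.

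Irf4 read 7.44, 7.69, 7.22 and 6.78 in effector KO and 7.57, 7.89, 7.81 and 7.77 in effector WT. The memory KO arrays read 5.66, 6.99, 6.88 and 6.39, against 7.34, 7.56, 7.25 and 7.10 in memory WT. Its memory KO arrays lay below every memory WT array, the effector WT arrays lay just above the memory WT arrays, and effector KO 4 reached into the memory KO range. Between the sorts the difference was 0.80 ± 0.24 in KO (adjusted p = 0.0507) and 0.45 ± 0.24 in WT (adjusted p = 0.436). The KO difference passed without effector KO 4, memory KO 2 or memory KO 3 (adjusted p of 0.0177 at least), as it did with array weights (adjusted p = 0.0257), and the WT difference passed in a fit of the 8 WT arrays (adjusted p = 0.0468). In memory cells KO minus WT was -0.83 ± 0.24 (1.78-fold lower in KO, adjusted p = 0.209), and in effector cells -0.48 ± 0.24 (adjusted p = 0.564).

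Nfatc1, the upstream calcineurin-dependent factor, had the smallest differences of the 10 between the sorts in KO chimeras. It read 8.96, 8.80, 8.54 and 9.11 in effector KO and 8.68, 8.76, 8.82 and 8.71 in effector WT. In memory KO it read 8.41, 8.74, 8.42 and 8.46, against 8.39, 8.72, 8.60 and 8.30 in memory WT. Effector minus memory was 0.34 ± 0.13 in KO (adjusted p = 0.116) and 0.24 ± 0.13 in WT (adjusted p = 0.425), and the KO value passed without effector KO 3 (0.45, adjusted p = 0.0421). KO minus WT in memory cells was 0.01 ± 0.13, with an interval of -0.26 to 0.27. In effector cells it was 0.11 ± 0.13, with an interval of -0.16 to 0.37.

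**Figure D2:**
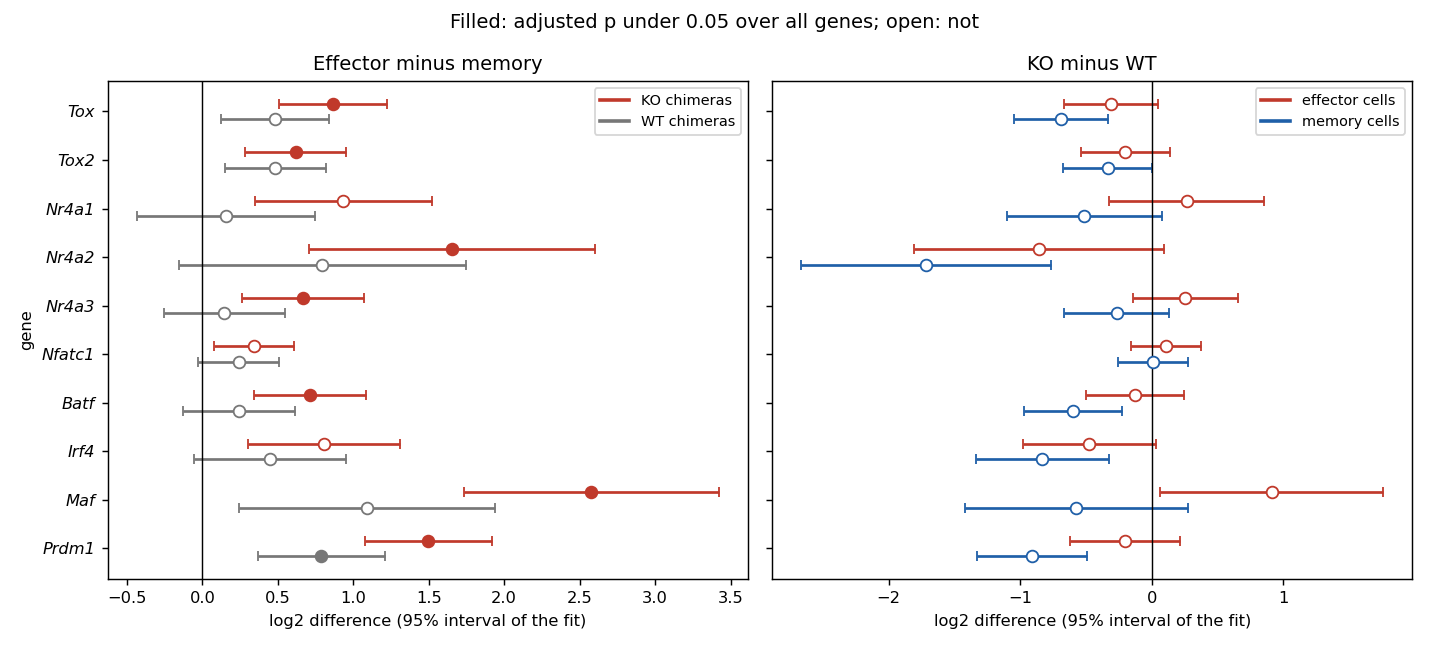
Log2 differences of the 10 factors with the 95% interval of the fit, effector minus memory in KO and WT chimeras (left) and KO minus WT in effector and memory cells (right). Filled circles passed over all genes, 7 in KO chimeras and 1 in WT chimeras, and the panel of KO minus WT has none.

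Set against WT, the KO arrays address whether these factors depend on Il4i1 in the transplanted marrow, in each sort. In memory cells the mean of 9 of 10 factors was lower in KO, Nfatc1 being the exception, beside 45.2% of all genes, with a median difference of -0.58 against 0.02 for all genes. None passed (limma), where 0.113% of all genes passed in either direction. Under the other settings tried the number that passed was between 0 and 3, and it was 2 (Tox and Prdm1) without memory KO 3. At an unadjusted p under 0.05, 5 were lower (Tox, Nr4a2, Batf, Irf4 and Prdm1), beside 6.08% of all genes. The memory KO arrays of the same 5 genes lay entirely below the memory WT arrays, beside 3.37% of all genes. In effector cells the mean of 6 factors was lower in KO, beside 46.7% of all genes, and that of 4 was higher, with a median of -0.17 against 0.01 for all genes. None passed there either, beside 0.0541% of all genes, and at an unadjusted p under 0.05 there was 1, Maf, beside 9.32%. The effector KO arrays lay entirely below the effector WT arrays for 1 factor, Prdm1, beside 1.94% of all genes. Both genotype comparisons are within a sort and share no array, while each shares arrays with the comparisons of effector and memory cells.

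Whether the genotype difference itself differed between the sorts was tested as an interaction, which equals the effector minus memory difference in KO less that in WT. It was above 0 for 10 of 10 factors, from 0.10 for Nfatc1 to 1.49 for Maf, beside 49.7% of all genes. No factor passed, with adjusted p between 0.841 and 0.948, and 0% of all genes passed, the smallest adjusted p over all genes being 0.3 (limma). At an unadjusted p under 0.05 there were 2, Maf (1.49 ± 0.57) and Prdm1 (0.71 ± 0.28), beside 5.84% of all genes. The numbers of calls between sorts in KO and WT chimeras, whose order turned in fits of 8 arrays, are therefore not shown to differ between the genotypes.

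The memory KO arrays did not form an even group. For 7 of 10 factors (Tox, Nr4a1, Nr4a2, Nr4a3, Batf, Irf4 and Prdm1) memory KO 1 and 4 were the lowest pair of the group, beside 24.4% of all genes. The mean of the 10 factors came to 6.87 on memory KO 1, 6.80 on memory KO 4, 7.39 on memory KO 2 and 7.54 on memory KO 3, against 7.66 to 7.99 in memory WT. On the effector side it lay between 8.03 and 8.37 in KO, effector KO 4 being lowest, and between 8.22 and 8.38 in WT. Effector KO 4 had the lowest effector KO value for Tox2, Nr4a1, Nr4a2, Irf4 and Prdm1 and the highest for Nr4a3, Nfatc1 and Maf.

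**Figure D3:**
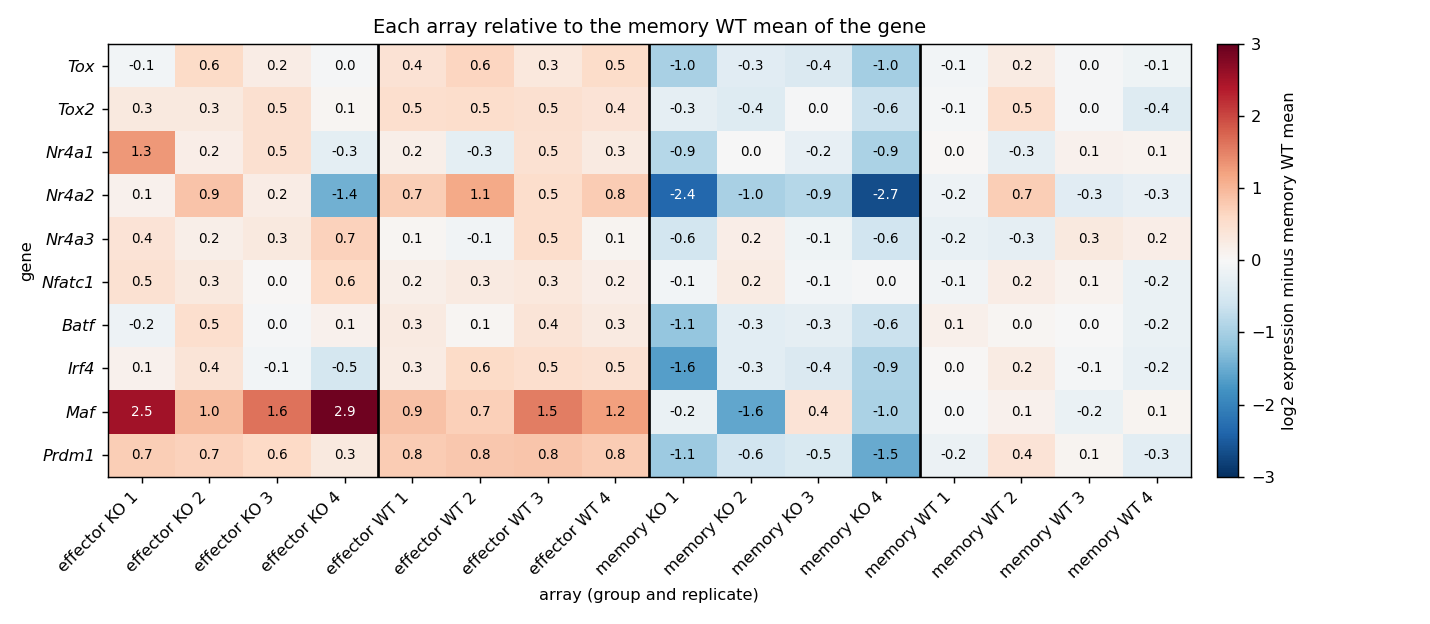
Log2 expression of each factor on each of the 16 arrays minus the memory WT mean of that gene; columns run from effector KO 1 to memory WT 4, and the colour scale spans -3 to 3. Memory KO 1 and 4 are the lowest columns of the map for Nr4a2, and the highest cells are those of Maf on effector KO 1 and 4.

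Other cell types and states moved beside these factors. B and CLL cell markers averaged 4.72 to 5.26 in memory KO and 5.16 to 6.04 in memory WT, with lower means in KO for 13 of 14 and 1, Cd22, past the threshold. Of the 14 markers, 2 lay under the array median on all arrays of memory KO and 2 on all arrays of memory WT. In effector cells the list averaged 4.15 to 4.47 in KO and 4.08 to 4.23 in WT. There 9 and 10 of 14 markers lay under the array median throughout. Effector cells had lower means than memory cells for 13 of 14 markers in each genotype. Within memory cells the median KO minus WT was -0.73 for these markers and -0.58 for the 10 factors. The B cell genes Ms4a1 and Pax5 averaged 4.27 and 4.27 in memory KO, against 5.67 and 5.36 in memory WT. Ighm, the 1 marker of the list with a higher mean in memory KO, averaged 11.33 there and 11.09 in memory WT. It averaged 9.56 in effector KO and 8.93 in effector WT, and lay above the array median on all 16 arrays. Irf4 and Prdm1 are also genes of plasma cells. Of 6 plasma cell markers, Tnfrsf17 lay above the array median on 0 of 16 arrays, Jchain on 2, Sdc1 on 15 and Mzb1 on 16. Xbp1 averaged 8.23 in effector KO, 8.44 in effector WT, 8.26 in memory KO and 8.32 in memory WT. The array medians were 4.12 to 4.22. Mzb1 averaged 5.66 in memory KO and 6.10 in memory WT, and it was lower in effector than in memory cells of WT chimeras (-0.71 ± 0.18, adjusted p = 0.0472). The 6 markers averaged 4.66 to 5.00 in effector KO and 4.80 to 4.93 in effector WT, and 4.90 to 5.31 in memory KO and 4.89 to 5.55 in memory WT. Markers of CD4, regulatory and follicular helper T cells, in which Maf and Tox2 are also active, averaged 5.45 to 6.13 in effector KO and 5.83 to 5.95 in effector WT, and 5.23 to 5.89 in memory KO and 5.94 to 6.16 in memory WT. Myeloid markers averaged 5.54 to 5.87 in effector KO and 5.40 to 5.68 in effector WT, and 5.93 to 6.62 in memory KO and 6.12 to 6.66 in memory WT. Of 15 myeloid markers, 6 were lower and 1 higher in effector cells of KO chimeras past the threshold, and 7 were lower in those of WT chimeras. The part of these cells in the results was not tested. In sorted populations measured in bulk, fewer cells that express a factor and less RNA per cell cannot be told apart.

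Cell cycle genes followed the same arrays. On average they stood at 7.45 on memory KO 1, 7.36 on memory KO 4, 8.13 on memory KO 2 and 8.63 on memory KO 3, against 8.38 to 8.66 in memory WT, with lower means in KO for 19 of 19 and 0 past the threshold. Between the sorts 8 of 19 passed as higher in effector cells of KO chimeras, among them Mki67 (1.06 ± 0.23), and 0 of 19 in WT chimeras. The part of cycling in the factors' differences was not tested.

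A list of inhibitory receptor genes, among them those that this programme is known to sustain, was mostly higher in effector than in memory cells, as the factors were. Of 13 inhibitory receptor genes measured, 10 were higher and 1 lower in effector cells of KO chimeras past the threshold, with a median difference of 1.48. Lag3 (2.03 ± 0.28, adjusted p = 0.00037), the TIM-3 gene Havcr2 (2.28 ± 0.41, adjusted p = 0.00266) and the PD-1 gene Pdcd1 (1.71 ± 0.40, adjusted p = 0.0144) were among those that rose, and Btla, an inhibitory receptor of resting lymphocytes, was the 1 that fell (-0.94 ± 0.17). In WT chimeras 3 passed as higher, Cd200r1, Cd101 and Lilrb4a, with a median of 0.87. In memory cells KO minus WT had a median of -1.12 for these receptors, with 10 of 13 lower in KO. In effector cells it had a median of -0.47, with 12 of 13 lower. There 6 of the 10 factors were lower, with a median of -0.17. Past the threshold there were 0 of 13 receptors in either sort.

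The lists around receptor signalling did not all move as the factors did. Of 6 early growth response genes and their NAB corepressors, Egr1 (0.96 ± 0.21, adjusted p = 0.0103) and Egr2 (1.14 ± 0.27, adjusted p = 0.0149) passed as higher in effector cells of KO chimeras, and none passed in WT chimeras or between genotypes. In memory cells this early growth response list had a median KO minus WT of -0.47, with 5 of 6 lower in KO. It averaged 5.64 on memory KO 1, 5.97 on memory KO 4, 6.17 on memory KO 2 and 6.44 on memory KO 3. The memory WT arrays gave 6.41 to 6.50. In the calcineurin and NFAT list, 0 of 21 passed as higher in effector cells. There 2 were lower in KO chimeras, the store-operated calcium channel gene Orai2 (-0.70 ± 0.12, adjusted p = 0.00213) and Dyrk1a, a kinase that returns NFAT to the cytoplasm (-0.43 ± 0.09, adjusted p = 0.00669), and 0 passed in WT chimeras or between genotypes. The list's median was -0.10 in KO and -0.05 in WT. A list of 12 immediate early genes responds to cell handling. Its median effector minus memory difference was -0.03 in KO and -0.26 in WT. Past the threshold 1 was higher (Egr1) and 1 lower (Ier2) in KO, and 0 in WT. The median KO minus WT of this list was 0.31 in effector cells, with 10 of 12 higher, and 0.25 in memory cells, with 8 of 12. None passed between genotypes. Its array means were 7.58 to 7.95 in effector KO and 6.99 to 7.50 in effector WT. In memory cells they were 7.51 to 7.84 in KO and 7.25 to 7.87 in WT. The part of handling was not tested.

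Relatives of the 10 factors did not move as a body. Among AP-1 and BATF partners, 0 of 11 were higher in effector cells past the threshold. Bach2, a repressor that holds T cells in a resting state, was lower in effector cells of KO chimeras (-1.78 ± 0.23, adjusted p = 0.000268) and of WT chimeras (-1.02 ± 0.23, adjusted p = 0.0234), and Batf3, a BATF paralog, was lower in those of WT chimeras (-0.92 ± 0.18, adjusted p = 0.00938). Of 6 other interferon regulatory factors measured, Irf2 passed as higher in effector cells of WT chimeras (0.47 ± 0.12, adjusted p = 0.0499) and none in KO chimeras. Of 7 other genes of the MAF and TOX families, 0 passed in any of the 5 comparisons.

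Factors of stem-like memory cells ran opposite to the 10. Of 11 measured, 6 were lower and 1 higher in effector cells of KO chimeras past the threshold and 6 lower in those of WT chimeras, with medians of -0.81 and -0.79. Lef1, a partner of the Wnt pathway, was at -1.25 ± 0.13 in KO (adjusted p = 2.94e-05) and -1.04 ± 0.13 in WT (adjusted p = 0.00025), and Id3, an inhibitor of E proteins, was at -1.20 ± 0.19 in KO (adjusted p = 0.0012) and -1.85 ± 0.19 in WT (adjusted p = 6.2e-05). The 1 that rose was Eomes, a T-box factor shared by memory and exhausted cells (0.55 ± 0.10, adjusted p = 0.00204). Among genes that BLIMP-1 is known to repress or work with, 3 of 11 were lower in effector cells of KO chimeras (Bcl2, Myc and Id3) and 4 in those of WT chimeras (Bcl2, Ciita, Pax5 and Id3), with 0 higher in either. Ciita and Pax5 are also B cell genes.

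**Figure D4:**
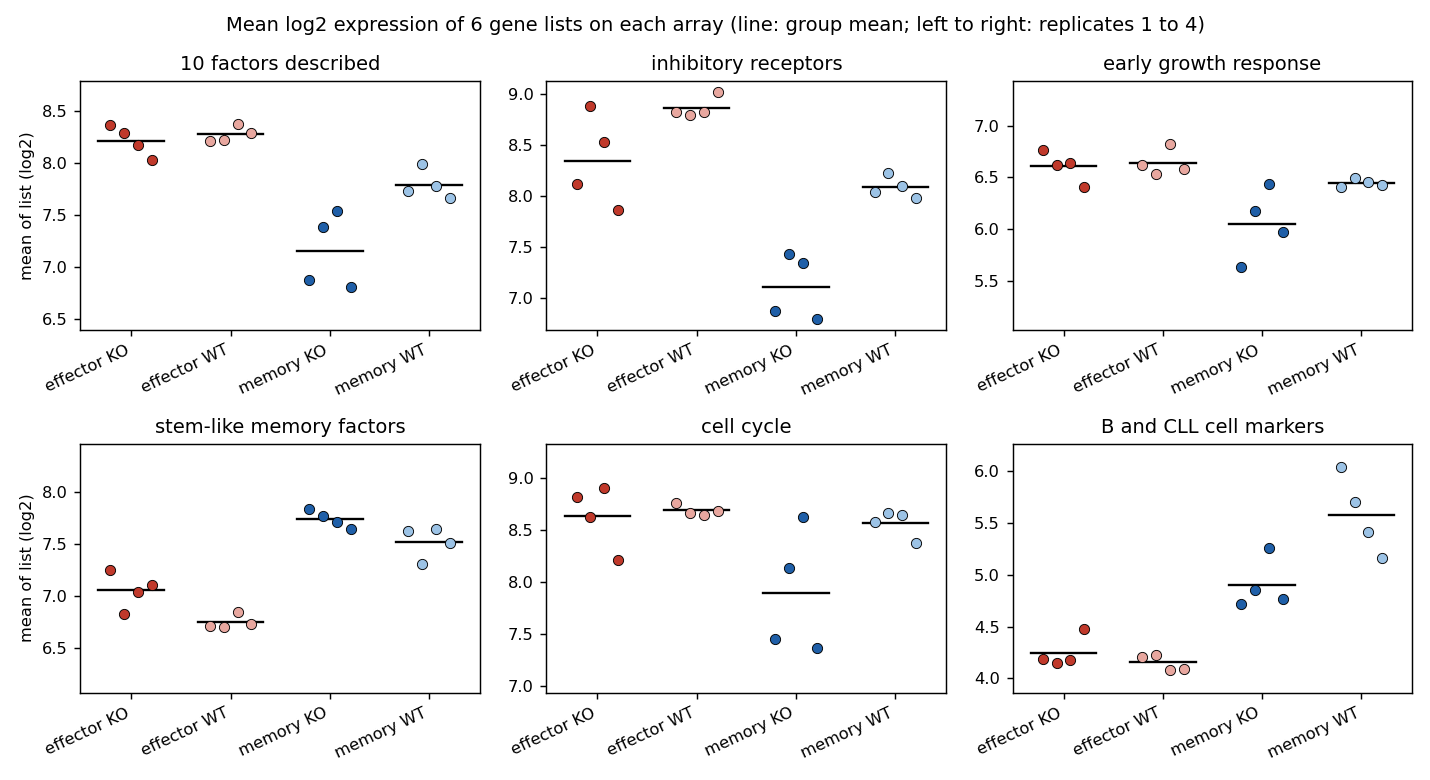
Mean log2 expression of the 10 factors and of 5 other gene lists on each array, by group from effector KO to memory WT; points are arrays and lines are group means, each panel with its own axis. Memory KO 1 and 4 are low in the panels of the 10 factors, the inhibitory receptors, the early growth response and the cell cycle. B and CLL cell markers are higher in memory than in effector arrays.

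The 10 factors also varied together. Pairwise Pearson correlations over the 16 arrays, which share the 4 groups, were above 0 for 45 of 45 pairs, from 0.30 to 0.95 with a median of 0.63. After the group means were removed, 36 of 45 pairs were above 0, with a median of 0.22 and a range of -0.46 to 0.86. The genes most like each factor over the 16 arrays, among 10431 named genes of above-median signal, were Med7 (r = 0.99) and Lag3 (0.98) for Prdm1, Stk39 (0.98) and Sh2d1a (0.97) for Tox, and Itih5 (0.99) and Glp1r (0.99) for Nr4a2. Tigit was among the closest 3 for Batf (0.92) and Irf4 (0.95), and Havcr2 for Irf4 (0.95). Nab1, a corepressor of early growth response proteins, and Gadd45b, a stress-inducible gene, were among the closest 3 for Nr4a1 (0.90 each). Plekhg2 and Dot1l (0.95 each) led for Maf, Gzmk, a granzyme gene, for Nr4a3 (0.91), D17H6S56E-5 (0.94) and Snx9 (0.94) for Tox2, and Krtap5-2 (0.86) for Nfatc1. After removal of the group means, Glp1r and Itih5 stayed the closest 2 for Nr4a2 (0.99 and 0.98) and Dot1l the closest for Maf (0.89), while Vamp8 was closest for Tox (0.97) and Cxcr5 for Nr4a1 (0.93). These correlations describe 16 arrays of 4 groups and carry no test.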

How the data were processed

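The 16 samples of splenic CD8 T cells were each hybridised to an Affymetrix array. Per the labels' protocols, it was extracted with the RNeasy Micro Kit and 1 ng was amplified and biotin-labelled with the GeneChip WT Pico kit. The authors deposited 1 value per probe set and array, taken as log2 expression. The base was inferred from their range of 0.7365 to 14.0453, and how they were normalized and summarised is not given in the sources used. No background level came with them, so the number of arrays limits the precision.

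Of 41345 probe sets, 23521 carried 1 symbol in GEO's platform annotation and gave 22180 genes. The 1814 with several symbols and 16010 unlisted ones were left out. limma 3.58.1 (R 4.3.3) fitted 4 group means to all arrays (12 residual and 4.23 prior degrees of freedom), with Benjamini-Hochberg adjustment over all genes. The fit was tested on simulated data. The labels do not say whether replicates are separate mice, and p-values reflect only how far these samples differ, which may be technical.

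All members are named, as are passing or leading genes of the lists and the 3 genes most correlated with each member. Members and lists were chosen with earlier results of these data known. The alternatives tried were a low-signal filter, quantile normalization, median centring, the mean of probe sets, all probe sets, a trended robust prior, array weights, fits of 8 arrays, replicate blocks and leaving out each array.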

Additional observations from a re-analysis of the deposited data

Results flagged for a closer look

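Within each group of 4 arrays, the gap of the highest or lowest array to its neighbour was set against the range of the group for every factor. In 2 of 40 such groups it exceeded Dixon's 95% critical value, and chance alone flags about 1 group in 20. Nr4a2 stood at 9.68 on memory WT 2, above 8.61 to 8.78 on the other memory WT arrays. Nfatc1 stood at 8.74 on memory KO 2, above 8.41 to 8.46 on the other memory KO arrays.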

How the results depend on the processing

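Over 450 values of the 50 member differences under other settings, 417 kept direction and side of the threshold, 11 lost it, 19 gained it and 3 turned direction. Those 3 were Nfatc1 with array weights in effector KO against WT (-0.0058) and in the interaction (-0.032), and with median centring in memory KO against WT (-0.040). With single arrays left out, signs also turned for Nr4a1 in effector cells (-0.028 to 0.50, turned without effector KO 1), Nfatc1 in memory cells (-0.071 to 0.079, turned without memory KO 2 or memory WT 1 or 4) and Tox2 in the interaction (-0.032 to 0.26, turned without memory WT 2). In the effector against memory comparison in KO, 7 members passed, 4 over all probe sets and 2 (Maf and Prdm1) in a fit of the 8 arrays alone, and 3 to 8 with single arrays left out. In the same comparison in WT, 1 passed, 2 with the mean of probe sets, 0 over all probe sets, 4 with array weights, 4 in a fit of the 8 arrays, and 0 to 2 with single arrays left out. Memory KO against WT had 0 to 2 with single arrays left out, 2 (Tox and Prdm1) without memory KO 3. The causes were not tested. Counts over all genes that moved by over 1.5 times were, in effector KO against WT, 12 against 4 (8 arrays), 29 (replicate block) and 4 to 42 (single arrays left out). In memory KO against WT, 25 stood against 13 (all probe sets), 42 (array weights), 7 (8 arrays), 104 (replicate block) and 11 to 249 (single arrays left out). The interaction had 0, and 0 to 5 with single arrays left out. Effector against memory had 1649 in KO against 600 (8 arrays) and 961 to 2044 (single arrays left out), and 715 in WT against 1644 (array weights), 1320 (8 arrays) and 359 to 1037 (single arrays left out).

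Replicate numbers are shared between groups, but the labels tie them to no animal. Deviations from the group means correlated at 0.02 to 0.24 between effector and memory arrays of the same number and genotype. Those of different number and the same genotype correlated at -0.17 to 0.11. Within a genotype each effector array but effector KO 1 correlated best with the memory array of its own number. Effector KO 1 correlated best with memory KO 3. Between KO and WT arrays of the same number the correlations were -0.03 to 0.14, and between those of different number in the same sort -0.20 to 0.20. The same-number pairs of effector and memory arrays were all above 0 but not all above 0.1, and the main fit did not pair arrays by number. With a replicate block across KO and WT, 3 members passed in memory KO against WT (Tox, Nr4a2 and Prdm1), beside 104 of all genes. With a replicate block within genotype, 2 passed in effector against memory in WT (Tox and Prdm1) and 9 in KO. For the interaction alone this block was added after seeing the data, and 0 members passed.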

Other observations

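Factors of effector fate did not share 1 direction with the exhaustion factors. Tbx21, the T-box factor of effector cells, was lower in effector than in memory cells of KO chimeras (-1.10 ± 0.29 SE, adjusted p = 0.027, limma) and of WT chimeras (-1.27 ± 0.29, adjusted p = 0.0202), while the related gene Eomes was higher in KO chimeras. Bhlhe40, a basic helix-loop-helix factor, was higher in effector cells of KO chimeras (0.97 ± 0.21, adjusted p = 0.00861), with means of 9.19 in effector KO and 8.22 in memory KO. Ikzf3, of the Ikaros family, was higher in effector cells of KO chimeras (0.34 ± 0.09, adjusted p = 0.0234) and of WT chimeras (0.45 ± 0.09, adjusted p = 0.00746). Stat4, which carries interleukin-12 signals, was lower in effector cells of KO chimeras (-0.53 ± 0.10, adjusted p = 0.00378), and Id2 was higher in those of WT chimeras (0.37 ± 0.10, adjusted p = 0.0456). Of the 12 genes of this list, 0 passed between KO and WT in either sort.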
